A study of Mus musculus with 12 samples.

Results

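Id1, Id2, Id3, Hes1, Hey1, Smad6, Smad7, Ski and Skil were followed in the immortalised mouse fibroblast line NIH-3T3, wild-type in every group. They were picked by symbol as Id genes, repressors switched on by Notch, and feedback regulators of TGF-beta and BMP signalling. All 9 were found among the 17419 genes of the deposited table. Cells received 4-thiouridine (4sU) at 800 µM for 15, 30, 60, 90 or 120 min, or none (no4sU). Each of these 6 groups had 2 libraries, A and B, and the labels do not say whether these came from separate cultures, so the errors below measure only the spread between these libraries. Cells build 4sU into the RNA they make, and iodoacetamide then causes it to be read as C, so that new RNA can be told from RNA made before labelling. The series addresses how the duration of labelling affects quantification. The labels name no other treatment of the cells, which grew in DMEM with 10% NCS.

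Id proteins are helix-loop-helix proteins without a DNA-binding region, which pair with E proteins and keep them from DNA, and their genes are classical targets of BMP signalling. Hes1 and Hey1 are repressors switched on by cleaved Notch, and Hes1 also represses its own gene, an arrangement known to give pulses of short-lived RNA. Smad6 and Smad7 are induced by BMP and TGF-beta and block the receptors that induced them, whereas Ski and its relative Skil (SnoN) bind the signalling Smads and hold their target genes off. Rapid turnover of the RNA is a known property of many such feedback regulators.

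The sequences that most often go with RNA turnover are AU-rich elements of the 3′ untranslated region, so the members' transcripts were searched for them in GENCODE M21 on GRCm38. The matches to TATTTAT on the sense strand are printed as DNA, 5′ to 3′, with the match in capitals. They are shown because they place the relatives Skil and Ski side by side, and whether a match bears on turnover was not tested.
Skil, chr3:31122430-31122458, plus strand: attttggattaTATTTATtgaaacatgac
Ski, chr4:155154157-155154185, minus strand: aaagcttggcaTATTTATctatttctctg
Smad6, chr9:63953320-63953348, minus strand: tacaacgtaatTATTTATatatggtgcaa
Id2, chr12:25094355-25094383, minus strand: tgtgataccgtTATTTATgagagactttc
Id2, chr12:25094106-25094134, minus strand: tgctgtgtataTATTTATatataaatata
Smad7 held 1 further match, and Id1, Id3, Hes1 and Hey1 held 0. Among the 8919 genes with a 3′ untranslated region and a mean count of at least 100, 32.3% held a match to TATTTAT. The shorter core ATTTA, which lies within TATTTAT, occurred 14 times in Skil, 10 times in Ski, 4 times in Smad7, 3 times in Id2, 2 times in Smad6 and 1 time in Hey1, and it was in 72.4% of the 8919 genes. Id1, Id3 and Hes1 held 0 matches to ATTTA in regions of 563, 536 and 368 bases, while the regions of Ski and Skil had 3266 and 3964 bases. The longer TTATTTATT, present in 8.47% of genes, was in none of the 9 members.

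Promoters of 4 of the 9 members (Id2, Id3, Ski and Smad6) were matched in a RefSeq table on GRCm38.p6, from 250 bases before to 50 after the start. Letters associated with Smad binding, a BMP response, RBPJ (the DNA-binding partner of Notch), Hes proteins and the TATA box were searched on both strands. The matches to the Smad and BMP letters are shown in capitals, since the members include targets and inhibitors of these pathways.
Smad6, GTCTAGAC, chr9:64022046-64022073, minus strand: ccgccaaagtGTCTAGACtggcatatga
Id2, GGCGCC, chr12:25096308-25096333, minus strand: aggccccctgGGCGCCcagcgcacac
Ski, GGCGCC, chr4:155222740-155222765, minus strand: gcgtggatgtGGCGCCgggcccgggc
The palindrome GTCTAGAC began 4 bases before the start of Smad6, and 0.213% of 32851 promoters of this length held it. GGCGCC began 231 bases before the start of Id2 and 220 before that of Ski, and it was in 11.9% of promoters. GTGGGAA (RBPJ, 6.38% of promoters), CACGTG (E-box, 7.15%) and TATAAA (13.6%) had 0 matches in these 4 windows, and CACNAG (N-box, 42.5%) had 1, in Id2. A match or its absence describes these letters in this window and says nothing of a factor.

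The libraries carried the RNA of fibroblasts: all 10 fibroblast markers passed the filter on low counts and summed to between 16080 and 19650 CPM (reads per 1000000 on TMM-scaled library sizes) per library. Epithelial markers summed to at most 0.582 CPM, endothelial ones to at most 1.80, leukocyte ones to at most 6.88 and muscle ones to at most 4.95, and Epcam, Krt18, Krt19, Adgre1, Cd3e, Myod1 and Myog gave 0 or no value. The fibroblast sum averaged 16130 CPM without 4sU, 16370 at 15 min and 19370 at 120 min, and its part in the results below was not tested. In such bulk libraries fewer cells of a type and less RNA per cell cannot be told apart. Between 9917026 and 13739380 reads were counted per library. Of the members, 8 passed the filter that left 11564 genes for testing. Hey1 did not, with between 0 and 5 reads per library. Its 0 reads in 90 min A allow up to 0.286 CPM by counting error alone, so its level was at the limit of what this depth can show, and its new share could not be read.

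Per kilobase of transcript, the scale on which genes can be compared, Id3 and Id1 were the most abundant members, at 46.2 ± 4.49 and 45.7 ± 3.38 CPM per kb (SD over 12 libraries). Both stood above 87.2% and 87.0% of the genes tested, respectively, and their ranges of 40.1 to 57.0 and 40.3 to 50.6 overlapped. Id2 followed with 27.8 ± 4.01 and Ski with 20.9 ± 0.994 CPM per kb. Their ranges, 21.7 to 34.0 and 19.0 to 22.2, also overlapped slightly. Smad7 at 9.58 ± 0.791 and Skil at 8.07 ± 0.926 CPM per kb lay near the middle of the genes tested, at the percentiles 49.6 and 45.0. Hes1 had 5.46 ± 0.786 and Smad6 2.13 ± 0.433 CPM per kb, with no overlap between them (4.36 to 6.53 against 1.44 to 2.84). The reads behind these levels averaged 1317 per library for Ski and between 469 and 675 for Smad7, Id1, Skil, Id2 and Id3, but 91.5 for Hes1 and 72.2 for Smad6, whose values are correspondingly less precise.

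**Figure D1:**
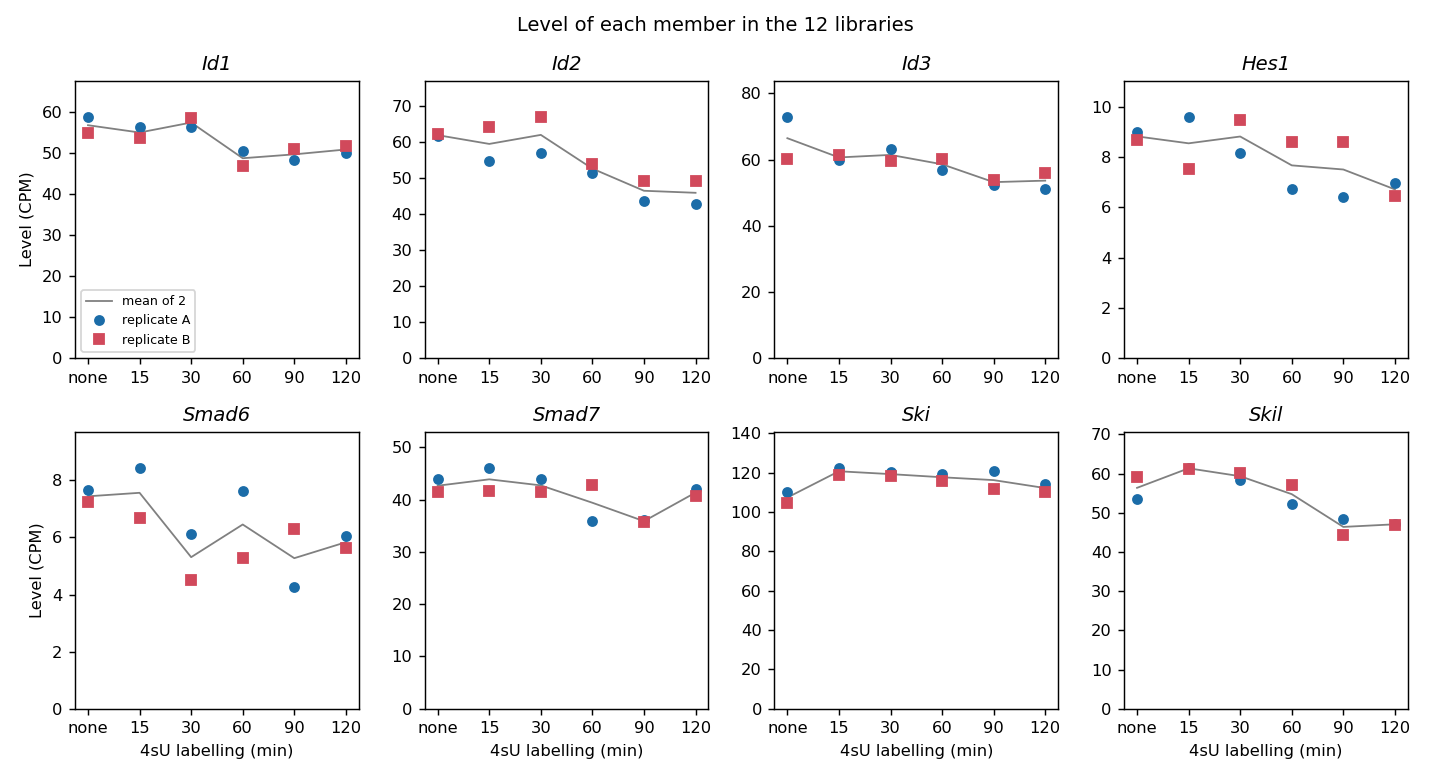
Level in CPM (reads per 1000000, linear axis from 0) of the 8 members tested, by labelling duration in min, with each library as a point (circle A, square B) and the mean of 2 as a line. Id2 and Skil decline after 30 min, from means of 62.0 and 59.3 CPM to 45.9 and 47.1 CPM after 120 min, while Ski stays between 105 and 123 CPM.

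Among the Id genes, Id2 had a lower level after long labelling. In each pair of values below, A is given before B. The level of Id2 was 61.7 and 62.1 CPM in no4sU A and B, 54.9 and 64.1 in the 15 min pair, 57.1 and 66.9 in the 30 min pair, 51.4 and 53.9 in the 60 min pair, 43.7 and 49.3 in the 90 min pair, and 42.8 and 49.1 in the 120 min pair. Both 90 min libraries lay below both unlabelled ones, as in 19.9% of the genes tested. The same held for both 120 min libraries, as in 26.7% of the genes tested. Against the 4 libraries of 15 and 30 min, 4 members (Id1, Id2, Id3 and Skil) were lower at 90 and 120 min without overlap, as were 13.7% of the genes tested. By edgeR's quasi-likelihood test with Benjamini-Hochberg adjustment over all genes, Id2 fell by 0.43 on the log2 scale (SE 0.0931, adjusted p = 0.00531) at 120 min against no4sU, a fitted fold of 0.744. Against 15 min it fell by 0.37 (SE 0.0942, adjusted p = 0.0103).

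Id3, the most abundant member per length, had 72.8 and 60.1 CPM in no4sU A and B, 59.9 and 61.5 in the 15 min pair, 63.4 and 59.5 in the 30 min pair, 57.0 and 60.2 in the 60 min pair, 52.4 and 54.0 in the 90 min pair, and 51.2 and 56.1 in the 120 min pair. Here the 2 unlabelled libraries differed by more than any labelled pair. Id3 fell by 0.30 (log2, SE 0.0834, adjusted p = 0.0224) at 120 min against no4sU, but without no4sU A the difference was -0.16 (adjusted p = 0.113). Against 15 min its difference of -0.17 (SE 0.0847, adjusted p = 0.156) did not pass.

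Id1 had 58.7 and 54.8 CPM without 4sU, 56.4 and 53.5 in the 15 min pair, 56.3 and 58.4 in the 30 min pair, 50.6 and 46.8 in the 60 min pair, 48.2 and 51.0 in the 90 min pair, and 50.0 and 51.6 in the 120 min pair. Both 60 min libraries lay below both 15 min libraries, as in 19.4% of the genes tested. There was little further difference after 60 min. Its differences at 120 min were -0.15 against no4sU (log2, SE 0.0729, adjusted p = 0.157) and -0.11 against 15 min (SE 0.0737, adjusted p = 0.301), and neither passed.

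The Notch target Hes1 was counted with 66 to 121 reads per library. It had 8.98 and 8.66 CPM in no4sU A and B, 9.58 and 7.50 in the 15 min pair, 8.14 and 9.49 in the 30 min pair, 6.74 and 8.59 in the 60 min pair, 6.41 and 8.60 in the 90 min pair, and 6.97 and 6.45 in the 120 min pair. Both 120 min libraries were below both unlabelled libraries, as in 26.7% of the genes tested. The difference of -0.40 against no4sU (log2, SE 0.175, adjusted p = 0.131) did not pass.

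Neither of the inhibitory Smads passed between groups. Smad7, which recruits ubiquitin ligases to the TGF-beta receptor, had 43.9 and 41.4 CPM without 4sU, 46.1 and 41.7 in the 15 min pair, 44.0 and 41.4 in the 30 min pair, 36.0 and 42.8 in the 60 min pair, 36.0 and 35.7 in the 90 min pair, and 42.0 and 40.7 in the 120 min pair. Its 90 min libraries were both below the unlabelled ones, as in 19.9% of the genes tested, and its 120 min libraries were again near them. The differences of Smad7 at 120 min were -0.04 against no4sU (log2, SE 0.0870, adjusted p = 0.775) and -0.09 against 15 min (SE 0.0875, adjusted p = 0.512). Smad6, which acts mainly on BMP receptors, ranged from 4.27 to 8.44 CPM. Both of its 120 min libraries were below both unlabelled ones (6.04 and 5.63 against 7.65 and 7.23), as in 26.7% of the genes tested. This difference did not pass (-0.35, SE 0.204, adjusted p = 0.258).

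Of the Smad corepressors, Skil passed and its relative Ski did not, with all libraries and TMM scaling. Skil had 53.6 and 59.1 CPM in no4sU A and B, 61.5 and 61.2 in the 15 min pair, 58.4 and 60.2 in the 30 min pair, 52.3 and 57.1 in the 60 min pair, 48.5 and 44.2 in the 90 min pair, and 47.2 and 46.9 in the 120 min pair. All 4 libraries of 90 and 120 min lay below the 4 of 15 and 30 min, as in 13.7% of the genes tested. Skil fell by 0.38 (log2, SE 0.0761, adjusted p = 0.00200) at 120 min against 15 min, a call that held under each of 19 alternative settings, and by 0.26 (SE 0.0761, adjusted p = 0.0260) against no4sU. The latter call was lost by DESeq2 (adjusted p = 0.0729) and without no4sU B (adjusted p = 0.129). Ski had 110.2 and 104.6 CPM without 4sU, 122.5 and 119.0 in the 15 min pair, 120.5 and 118.1 in the 30 min pair, 119.5 and 115.9 in the 60 min pair, 120.8 and 111.7 in the 90 min pair, and 114.4 and 110.0 in the 120 min pair. Ski thus lay above the unlabelled libraries in all labelled libraries up to 90 min. At each single duration up to 90 min, 13.6% to 19.9% of the genes tested did so. The share that did so at all of these durations was not counted, and all of them rest on the same unlabelled libraries. The difference of Ski at 120 min against no4sU was 0.06 (SE 0.0611, adjusted p = 0.516). Whether Ski and Skil differ in their change was not tested.

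In all, 3 of the 8 members tested passed at 120 min against no4sU (Id2, Id3 and Skil), all lower, where 14.2% of the 11564 genes passed and 8.78% were lower. The members' median difference was -0.28 (log2), beside 0.01 over all genes. DESeq2 passed Id2 and Id3. With 120 min A left out, 0 of these 3 passed. Without 120 min B, only Id2 did. Against 15 min, 2 of 8 passed (Id2 and Skil), with 19.3% of genes passing and 11.3% lower, and the medians were -0.26 and 0.01. Id2 was lost there without 15 min B (adjusted p = 0.169) or without 120 min A (adjusted p = 0.141). The joint test of any difference among the 5 durations named the same 2 genes, Skil (adjusted p = 0.00299) and Id2 (adjusted p = 0.00943), with 10.0% of genes passing.

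Fewer members passed at earlier durations. At 90 min against no4sU only Id2 passed (-0.41, SE 0.0948, adjusted p = 0.0318), where 1.39% of genes did and 0.943% were lower. That call was lost without 60 min B, 90 min A or 90 min B. At 15, 30 and 60 min against no4sU, 0 members passed by edgeR (1, 2 and 3 before adjustment, at p under 0.05), and DESeq2 passed 0 (1, 1 and 2 before adjustment). Among all genes, 0.0% passed at 15 and 30 min and 0.0173% at 60 min. Without no4sU B, which leaves a lone unlabelled library, the calls at these 3 durations moved over all genes and not only for Id1 and Id3. At 60 against 15 min 0 members passed by either tool (2 unadjusted by edgeR and 0 by DESeq2), with 0.0346% of genes passing.

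A slope over the 10 labelled libraries used all durations at once, and 5 members declined with labelling time: Skil, Id2, Id3, Hes1 and Id1. The slope of Skil was -0.25 per hour (log2, SE 0.0344, adjusted p = 2.61e-07), that of Id2 -0.26 (SE 0.0411, adjusted p = 3.06e-06) and that of Id3 -0.13 (SE 0.0326, adjusted p = 0.00211). These 3 passed in all 16 alternative settings. Hes1, at -0.21 per hour (SE 0.0822, adjusted p = 0.0374), and Id1, at -0.10 (SE 0.0364, adjusted p = 0.0328), did not pass by DESeq2. Ski at -0.06 (SE 0.0244, adjusted p = 0.0573), Smad7 at -0.09 (SE 0.0433, adjusted p = 0.109) and Smad6 at -0.16 (SE 0.104, adjusted p = 0.218) did not pass. Of the 11526 genes in this fit 37.8% passed, 19.5% with a decline, and the median slope was -0.15 for the 8 members and 0.00 (0.00365) over all genes. Id1 was lost without 15 min A, 30 min A, 30 min B, 90 min A or 120 min A, and Hes1 without 15 min A, 30 min B, 90 min A, 120 min A or 120 min B. Smad7 passed with a slope of -0.24 (adjusted p = 0.00488) without both 120 min libraries, and also without 120 min A alone (-0.13, adjusted p = 0.0391), while Ski passed without 90 min A (adjusted p = 0.0337). With library size alone in place of TMM, Ski (adjusted p = 0.00275) and Smad7 (adjusted p = 0.0264) passed as well.

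**Figure D2:**
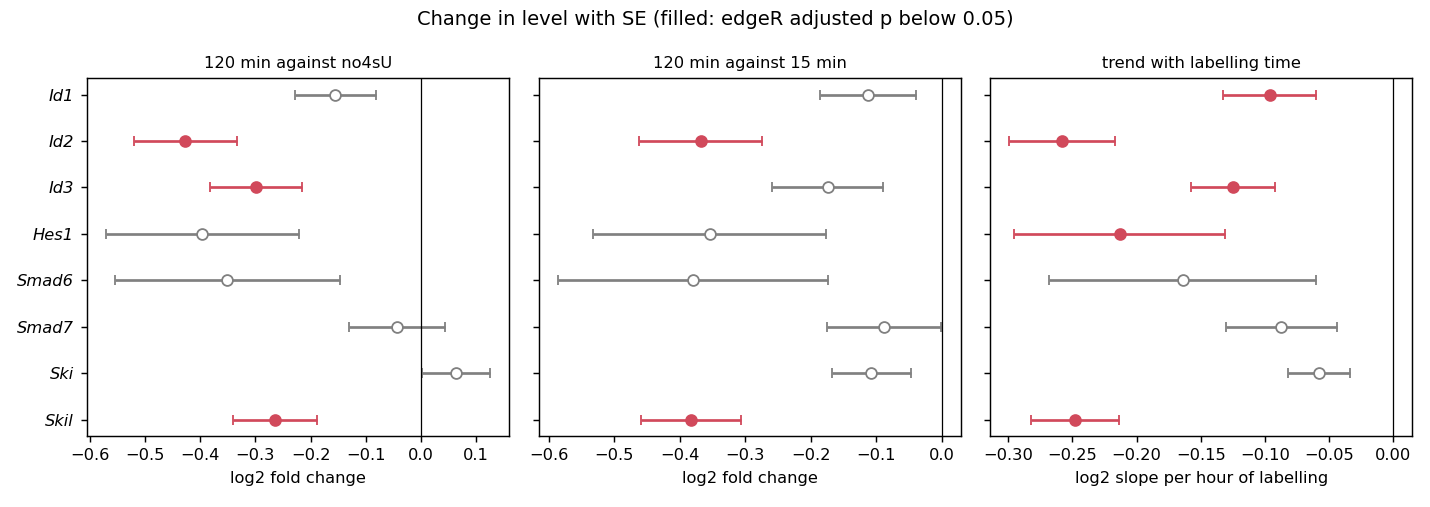
Differences in level of the 8 members tested, as log2 fold changes at 120 min against no4sU and against 15 min and as log2 slopes per hour of labelling, with bars of 1 SE; filled red points passed edgeR's adjusted p of 0.05. Id2 and Skil are filled in all 3 panels and Ski, Smad6 and Smad7 in none.

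Turnover was read from the new-to-total ratio (NTR), in which the members also differed widely. The NTR gives how much of the RNA of a gene was made while 4sU was present, deposited as the maximum of a posterior distribution with 0.05 and 0.95 quantiles, which span a 90% interval. At 60 min the median gene was 15.5% new (SD 0.410, n = 2 libraries, 9065 genes), while Smad7 was 93.2% ± 5.29, Hes1 93.2% ± 9.67 and Id1 90.8% ± 0.389 new. Id3 followed with 70.7% ± 1.76, Skil with 56.8% ± 0.226, Id2 with 55.8% ± 5.63, Smad6 with 45.1% ± 4.45 and Ski with 20.97% ± 0.311. Smad7 and Hes1 stood above 99.7% of genes at that time, Id1 above 99.6%, Smad6 above 91.2% and Ski above 65.6%.

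In both 60 min libraries the intervals of Smad7, Hes1 and Id1 overlapped, as did those of Skil, Id2 and Smad6 from neighbour to neighbour. Those of Id1 and Id3, of Id3 and Skil, and of Smad6 and Ski did not overlap in either library. At 90 and 120 min Smad6 and Ski were the only neighbours whose intervals did not overlap in either library.

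**Figure D3:**
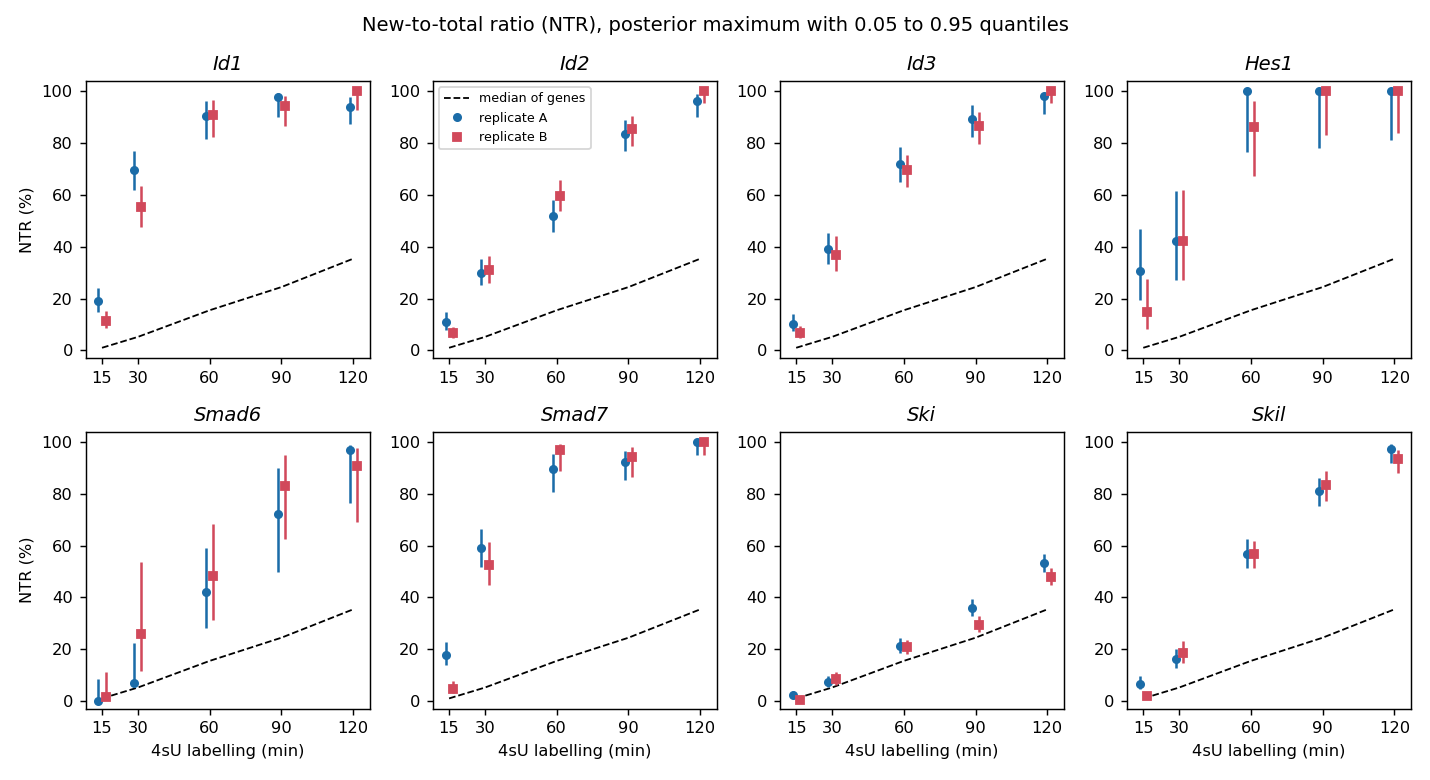
New-to-total ratio (NTR, percent, linear axis) against labelling duration in min for the 8 members tested, with the posterior maximum of each library as a point (circle A, square B), bars from the 0.05 to the 0.95 quantile and the median of 9065 genes as a dashed line. Id1 and Smad7 pass 50% by 30 min, whereas Ski reaches 50.5% at 120 min.

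The NTR of Id1 was 18.9% and 11.4% in 15 min A and B, 69.6% and 55.3% in the 30 min pair, 90.5% and 91.0% in the 60 min pair, 98.0% and 94.5% in the 90 min pair, and 93.9% and 100.0% in the 120 min pair. At 30 min the 90% interval was 61.8% to 77.2% in A and 47.5% to 63.4% in B. Smad7 took a similar course, with 17.7% and 4.82% in the 15 min pair, 59.0% and 52.7% in the 30 min pair, 89.5% and 97.0% in the 60 min pair, 92.3% and 94.2% in the 90 min pair, and 100.0% in both at 120 min. Over the 10 labelled libraries the NTR of these 2 genes differed by a root mean square of 5.20 percentage points, the smallest value among the 28 pairs of the 8 members, and Id1 was the higher in 7 of 10 libraries.

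Hes1 had the highest mean NTR at 15 min, with 30.8% in A and 15.0% in B, but its intervals (19.6% to 46.7% and 8.20% to 27.4%) overlapped those of Id1 in both libraries. It was 42.2% and 42.4% in the 30 min pair, 100.0% and 86.3% in the 60 min pair and 100.0% in all 4 later libraries. A posterior maximum of 100.0% can lie above the 0.95 quantile, and at 120 min the lower quantile of Hes1 was still 81.2% in A and 83.9% in B.

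Id3 and Id2 were slower than Id1. Id3 had an NTR of 10.2% and 6.53% in the 15 min pair, 39.0% and 37.0% in the 30 min pair, 72.0% and 69.5% in the 60 min pair, 89.5% and 86.6% in the 90 min pair, and 98.0% and 100.0% in the 120 min pair. Id2 had 10.9% and 6.61% in the 15 min pair, 29.8% and 30.9% in the 30 min pair, 51.8% and 59.8% in the 60 min pair, 83.5% and 85.3% in the 90 min pair, and 96.2% and 100.0% in the 120 min pair. The order Id1, Id3, Id2 thus held in both libraries at 30, 60 and 90 min. Id3 exceeded Id2 in 7 of 10 libraries and equalled it in 120 min B, with overlapping intervals in both libraries at 15, 30, 90 and 120 min.

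Ski and Skil again parted. Skil had an NTR of 6.57% and 1.90% in the 15 min pair, 16.1% and 18.4% in the 30 min pair, 56.9% and 56.6% in the 60 min pair, 81.0% and 83.6% in the 90 min pair, and 97.3% and 93.5% in the 120 min pair. Ski had 2.41% and 0.570% in the 15 min pair, 7.29% and 8.34% in the 30 min pair, 21.2% and 20.8% in the 60 min pair, 36.0% and 29.5% in the 90 min pair, and 53.1% and 47.8% in the 120 min pair. Skil was the higher in 10 of 10 libraries, by a root mean square of 34.3 percentage points. Both 3′ untranslated regions hold the TATTTAT match printed above and 10 or more ATTTA cores. Over the 8919 genes searched, the median NTR at 60 min was 19.4% with a TATTTAT match and 13.8% without. Genes with a match also had longer 3′ untranslated regions (medians of 2219 and 903 bases). What part such matches have in the NTR of these 2 members was not tested.

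The NTR of Smad6 went from 0.0% and 1.47% in the 15 min pair through 6.77% and 25.9% in the 30 min pair and 42.0% and 48.3% in the 60 min pair to 72.3% and 83.1% in the 90 min pair and 97.1% and 90.9% in the 120 min pair. With 44 to 96 reads per labelled library its intervals were wide, 28.3% to 58.9% in 60 min A. Its partner Smad7 had the higher NTR in 10 of 10 libraries.

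The 15 min libraries differed from each other across the table. The median gene was 1.34% new in A and 0.670% in B, and the median of the 8 members was 10.5% and 5.68%. From 30 min on, the gene medians of the 2 libraries were closer in proportion (5.12% and 5.29% in the 30 min pair, 25.4% and 23.5% in the 90 min pair). The members' ratios are therefore best read from 30 min.

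Under a constant level, an NTR implies a half-life of the RNA, ln 2 times the duration divided by the negative logarithm of the share not new, here computed for an NTR between 0.01 and 0.99. At 60 min the apparent half-life was 15.2 ± 4.64 min for Smad7 and 17.5 ± 0.309 min for Id1 (SD, n = 2), beside a median of 247 min over genes. It was 33.9 ± 1.66 min for Id3, 49.6 ± 0.310 min for Skil, 51.3 ± 7.99 min for Id2, 69.7 ± 9.41 min for Smad6 and 177 ± 2.96 min for Ski. Each SD is the spread between the posterior maxima of 2 libraries and does not carry the 90% intervals of the NTR. For Id1 at 60 min these were 81.7% to 96.3% in A and 82.4% to 96.6% in B. Hes1 gave 20.9 min in 60 min B alone, as its ratio in A was at the limit, and 37.8 ± 0.194 min at 30 min. The NTR intervals of Hes1 at 30 min were wide, 27.1% to 61.6% in A and 27.3% to 61.9% in B. The small SD of Hes1 at 30 min therefore does not show a precise half-life.

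These values were not constant over the duration. For Skil the apparent half-life was 110.5 ± 11.3 min at 30 min, 49.6 min after 60 min, 36.1 ± 2.17 min after 90 min and 26.8 ± 5.13 min after 120 min. Ski went from 257 ± 25.4 min at 30 min to 119 ± 12.7 min at 120 min, and Id2 from 57.5 ± 1.68 min at 30 min to 33.6 ± 1.52 min at 90 min. The value of Id1 was 67.6 ± 25.4 min when read after 15 min, 21.7 ± 5.94 min after 30 min, 18.7 ± 3.89 min after 90 min, and 29.8 min in 120 min A, the library of that duration that gave a value. Its difference between 30 and 90 min was smaller than the spread between its libraries. The median gene also shortened, from 368 ± 11.4 min at 30 min to 198 ± 5.41 min at 120 min. An apparent half-life is thus tied to the duration at which it was read.

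**Figure D4:**
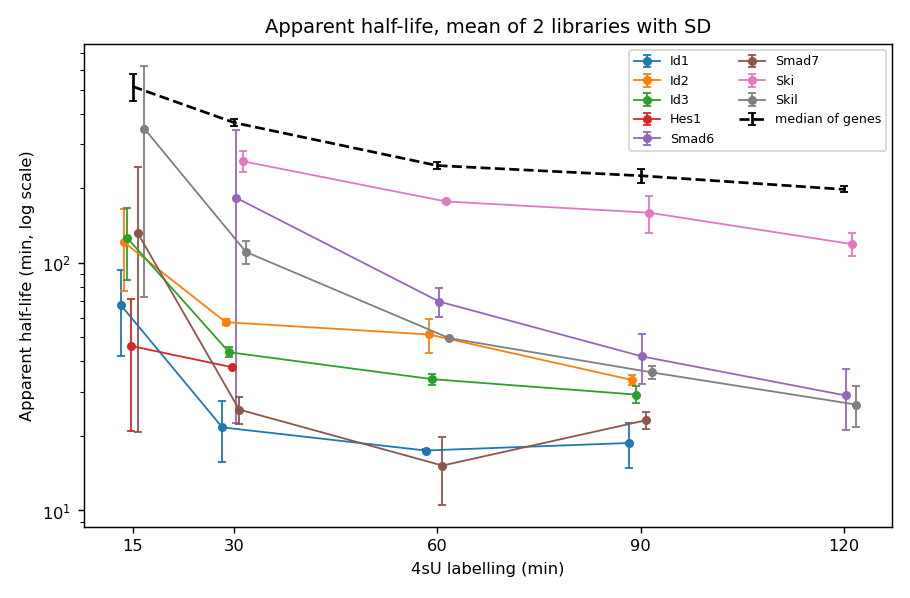
Apparent half-life in min (log axis) against labelling duration in min, as mean and SD of 2 libraries for each member where both libraries gave a value, with the median over genes as a dashed line. Id1 lies near 20 min from 30 to 90 min, while Skil shortens from 110.5 to 26.8 min and Ski stays above 100 min.

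Splitting each level into a new part (CPM times NTR) and an older part showed how the pools were exchanged. New Id1 RNA amounted to 8.39 CPM after 15 min and 35.8 ± 4.90 CPM after 30 min, then to 44.2 ± 2.22, 47.7 ± 0.674 and 49.3 ± 3.28 CPM after 60, 90 and 120 min, so that it was close to its final amount by 60 min. Older Id1 RNA went from 46.5 ± 1.20 CPM at 15 min to 4.50 ± 0.435 at 60 min. New and older RNA were of similar amount at 60 min in Skil (31.1 ± 1.80 and 23.7 ± 1.59 CPM), and in Ski only at 120 min (56.7 ± 5.78 and 55.5 ± 2.61 CPM).

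New Skil RNA still gained between 90 and 120 min, from 38.1 ± 1.63 to 44.9 ± 1.48 CPM, while the older part dropped from 8.25 ± 1.39 to 2.17 ± 1.23 CPM. New Id2 RNA amounted to 18.8 ± 2.56 CPM at 30 min and 45.1 ± 5.60 CPM at 120 min, and the older part went from 43.2 ± 4.38 to 0.817 ± 1.16 CPM. For Id2 the new RNA at 120 min, when it was nearly all of the RNA, was below the total of 61.9 ± 0.307 CPM in the unlabelled libraries. For Smad7 it was 41.3 ± 0.967 CPM beside an unlabelled total of 42.7 CPM, a difference smaller than the spread of the latter (43.9 and 41.4).

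**Figure D5:**
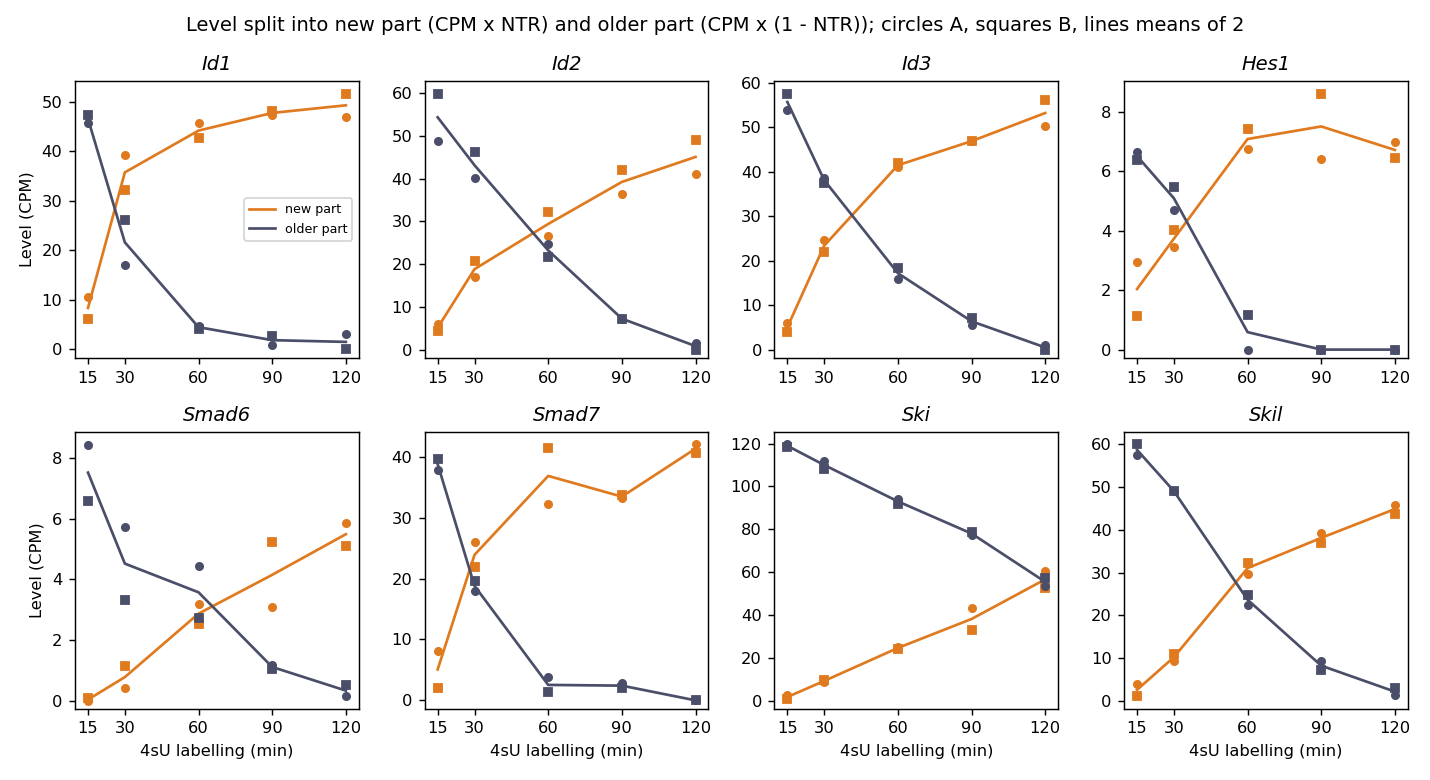
New part (orange) and older part (dark) of the level in CPM (reads per 1000000) against labelling duration in min for the 8 members tested, with libraries as circles (A) and squares (B) and means of 2 as lines. The parts cross before 30 min in Id1 and Smad7, near 60 min in Id2 and Skil and at 120 min in Ski.

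Genes of like NTR also differed in level after long labelling. Of 339 genes with an NTR of at least 60% at 60 min, the class of Id1, Id3, Hes1 and Smad7, 37.2% were lower at 120 than at 15 min by edgeR's adjusted p, with a median difference of -0.24 (log2). Of 704 genes with 40 to 60%, the class of Id2, Smad6 and Skil, 46.9% were lower with a median of -0.26. Of 2300 genes with 20 to 40%, that of Ski, 29.2% were lower, with a median of -0.16. Below 20% new, where no member falls, 2.20% of 5722 genes were lower and the median was 0.09. Of the members' own differences, -0.11 for Id1, -0.17 for Id3, -0.09 for Smad7 and -0.11 for Ski were smaller in size than their class medians. Those of -0.38 for Skil, -0.37 for Id2, -0.38 for Smad6 and -0.35 for Hes1 were larger. Of all these only Skil and Id2 passed. In the slope over labelled libraries, 58.4% of the class of at least 60% declined, with a median of -0.15 per hour (log2). In the class of 40 to 60%, 67.2% declined, also with a median of -0.15. The shares were 47.7% for 20 to 40% and 6.13% below 20%. The median slope of the 8 members, -0.15, was thus near that of genes of like NTR.

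For the 6 members with a mean count of at least 100, the gene of most similar NTR was sought among 9065 genes by the root mean square difference over the 10 labelled libraries. For Id1 this was Dusp6, a phosphatase of ERK, at 2.72 percentage points. For Id2 it was Has2, a hyaluronan synthase (3.57 points), and for Id3 Cited2, a partner of CBP and p300 (2.77 points). For Smad7 it was Ccnl1, which encodes cyclin L1 (3.91 points), for Ski Ttc9c (1.30 points) and for Skil Mafk, a small Maf factor (2.47 points).

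Other genes of these pathways were taken from 7 lists with 114 names, of which 97 were in the table and 85 were tested. At 120 against 15 min 23 of the 85 were lower and 5 higher by edgeR's adjusted p, with a median difference of -0.13 (log2) beside 0.01 over all genes, of which 19.3% passed and 11.3% were lower. Against no4sU, 14 were lower and 5 higher (14.2% of all genes passed and 8.78% were lower). In the slope over labelled libraries 36 declined and 12 rose among 84, where 37.8% of all genes passed and 19.5% declined.

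Among Notch genes 8 of 28 passed at 120 against 15 min, all lower, beside 11.3% of all genes lower. In the slope 10 of 28 declined and 5 rose, where 37.8% of all genes passed and 19.5% declined. Jag1, a Notch ligand, fell by 0.43 (log2, SE 0.105, adjusted p = 0.00787) from 23.1 ± 2.13 to 17.1 ± 1.29 CPM. Tle4, a corepressor used by Hes proteins, fell by 0.49 (SE 0.104, adjusted p = 0.00306), and Dtx4 fell by 0.46 (SE 0.0939, adjusted p = 0.00237). Aph1b, a subunit of gamma-secretase, fell by 0.56 (SE 0.165, adjusted p = 0.0221), from 10.1 ± 2.26 CPM. Their NTR at 60 min was 54.5% for Jag1, 37.4% for Tle4, 39.6% for Dtx4 and 11.4% for Aph1b. DESeq2 passed 6 of 23, all lower.

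In a list of Id4 and partners of Id proteins, 0 of 6 passed at 120 against 15 min by edgeR (1 with an unadjusted p under 0.05). By DESeq2 0 passed there (0 unadjusted), and likewise 0 against no4sU by edgeR and by DESeq2 (0 unadjusted by either). In the slope 2 of 6 passed, beside 37.8% of all genes: Id4, the fourth Id gene, declined by -0.43 per hour (SE 0.115, adjusted p = 0.00278) at a mean of 4.86 CPM at 15 min, and Tcf12, an E protein, by -0.08 (SE 0.0266, adjusted p = 0.0142).

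Of the signalling Smads 3 of 6 were lower at 120 than at 15 min, beside 11.3% of all genes. These were Smad1 (-0.41, log2, SE 0.112, adjusted p = 0.0150), Smad5 (-0.33, SE 0.0848, adjusted p = 0.0105) and Smad3 (-0.24, SE 0.0720, adjusted p = 0.0256). Of 10 receptors 2 were lower, a share near that of all genes passing (19.3%, with 11.3% lower). They were Acvr2a (-0.47, SE 0.134, adjusted p = 0.0191) and Tgfbr1 (-0.38, SE 0.115, adjusted p = 0.0263). Of 7 ligands tested Inhba, an activin subunit, was lower (-0.51, SE 0.0927, adjusted p = 0.00104), and Bmp1, a procollagen protease despite its name, was higher (0.29, SE 0.0708, adjusted p = 0.00787). Against no4sU, 2 Smads (Smad1 and Smad3), 1 receptor and 0 ligands passed by edgeR (2 ligands unadjusted, and 0 by DESeq2 with 2 unadjusted). Of all genes 14.2% passed there and 8.78% were lower. The receptor was Eng, whose 1.02 ± 0.0263 CPM without 4sU and 0.206 ± 0.0276 CPM at 120 min rest on few reads, and by DESeq2 0 receptors passed there (2 unadjusted).

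A list of inhibitors and other regulators of the pathway, latent TGF-beta binding proteins included, had 6 of 20 lower and 2 higher at 120 against 15 min. Of all genes 19.3% passed there and 11.3% were lower. Smurf2, a ubiquitin ligase that works with Smad7, fell by 0.41 (log2, SE 0.0665, adjusted p = 0.000432), from 135.5 ± 3.69 to 102.0 ± 2.33 CPM. Tgif1, a Smad corepressor like Skil, fell by 0.37 (SE 0.0610, adjusted p = 0.000515), and Bambi, a decoy receptor, by 0.39 (SE 0.127, adjusted p = 0.0368). Ltbp2, a matrix protein of the latent TGF-beta binding family, rose by 0.31 (SE 0.0617, adjusted p = 0.00194). Tgif1 and Bambi were 63.9% and 49.9% new at 60 min and Ltbp2 4.71%.

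TGF-beta targets were split as well, with 3 of 8 lower and 2 higher, where 19.3% of all genes passed and 11.3% were lower. Ccn2 fell by 0.58 (log2, SE 0.0718, adjusted p = 4.5e-05), from 610.3 ± 6.87 to 408 ± 4.84 CPM. Cdkn1a rose by 0.32 (SE 0.0633, adjusted p = 0.00193) and Tagln, a smooth muscle actin-binding protein, by 0.26 (SE 0.0654, adjusted p = 0.00917). At 60 min Ccn2 was 85.5% and Cdkn1a 59.4% new, while Tagln was 0.920% new. Of the 2 that rose, Cdkn1a thus had a high NTR and Tagln a low NTR. Cdkn1a falls in the class of 704 genes that were 40 to 60% new at 60 min. Of these 334 passed at 120 against 15 min, 330 of them lower.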

How the data were processed

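RNA of 12 NIH-3T3 libraries (6 groups of 2, group and letter from the sample titles) was sequenced after iodoacetamide treatment. The authors deposited estimated counts per gene and library, unscaled, of which 20.4% were not whole (tolerance 1e-06). These were rounded before testing. Each NTR is a deposited fraction with its posterior maximum, mean and quantiles per the file headers. The deposited alpha and beta columns (parameters of a distribution, recorded with the unit score) were not used here. Cutadapt, Bowtie2 2.3.0 and STAR 2.7.10b are named in the submitters' processing notes. For the counting tool, build, annotation and strand setting, the sources used here name nothing. Reads of overlapping genes therefore cannot be told apart. There were 0 columns of other samples and 0 entries without a gene.

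Counts were fitted with edgeR 4.0.16 in R 4.3.3: filterByExpr, TMM factors (0.97 to 1.02), a quasi-likelihood fit over all 12 libraries (common biological coefficient of variation 4.44%) and, for the slope, over the 10 labelled ones. P-values were adjusted by Benjamini-Hochberg over all genes tested, with a threshold of 0.05. The scripts were tested on simulated data. Alternatives were DESeq2 1.42.0, its size factors, library size alone, no filter, fewer groups, a replicate block and leaving out each library. Total reads per library were 9917026 to 13739380. Measures of the NTR are described without a test. Locations and 3′ untranslated regions came from GENCODE M21 on GRCm38, by Ensembl ID.

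The members and lists were chosen with earlier results of these data known. Named were all 9 members, up to 4 genes per list and contrast with the greatest change among those that passed, a selection of which is printed, and the gene nearest in NTR to each member with a mean count of at least 100. Replicate letters did not pair the libraries (15 correlations of deviations between -0.036 and 0.074).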

Additional observations from a re-analysis of the deposited data

How the results depend on the processing

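Id2, Id3 and Skil kept their declining slope past the threshold in all 16 settings tried, and Skil its fall at 120 against 15 min in all 19. Other counts of members moved. At 90 min against no4sU 3 members passed with library size alone and 3 with no filter (Id2, Id3 and Skil), but 0 with only the groups compared, and 0 to 2 with a library left out. At 120 min against no4sU 0 passed with only the groups compared and 0 to 3 with a library left out. At 120 against 15 min the latter range was 1 to 3. The joint test passed 5 members in the fit of labelled libraries alone and 1 to 5 with a library left out. For the slope DESeq2 passed 3, library size alone 7 (adding Ski and Smad7) and the leave-one-out fits 3 to 5. At 15, 30 and 60 min against no4sU leaving out a library gave 0 to 1, 0 to 1 and 0 to 2. The difference of Ski at 120 min against no4sU turned to -0.0 (adjusted p = 0.981) with library size alone, and the cause was not tested. With the replicate block, 3, 2 and 5 members passed at 120 min against no4sU, at 120 against 15 min and in the slope, as without it, and 1 at 90 min.

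Counts over all genes moved by more than 1.5 times too. At 120 min against no4sU 1643 genes passed, with 171 to 1986 in other settings and 452 to 3533 with a library left out. At 120 against 15 min 2228 passed (1439 to 3818, and 657 to 3701), in the joint test 1162 (959 to 3058, and 206 to 3055), in the slope 4362 (1654 to 4447, and 3418 to 4372), and at 90 min 161 (2 to 438, and 8 to 1442). At 15, 30 and 60 min against no4sU 0, 0 and 2 genes passed, with up to 9, 9 and 95 in other settings and up to 1336, 1363 and 1213 with a library left out. At 60 against 15 min 4 passed (4 to 144, and 0 to 100). Of 120 NTR values recomputed with the posterior mean or a single library, 4 moved by more than the spread between libraries, among them Hes1 at 120 min (95.2%). A leave-one-out fit assumes that the lone library of a group varies like the others. Depth limits Hes1, Smad6 and Hey1 most.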
